A study of Mus musculus with 6 samples.

Results

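The genes described here are the Notch receptors, their ligands and the Fringe glycosyltransferases: Notch1, Notch2, Notch3 and Notch4, Jag1, Jag2, Dll1 and Dll4, and Lfng and Mfng. Members were all probe sets whose platform annotation gives exactly 1 gene symbol that is 1 of these 10, which found 20 of the 45037 probe sets tested. They comprised 9 probe sets of the 4 receptors, 8 of the 4 ligands and 3 of the 2 Fringe genes. RNA came from mouse bone marrow cells sorted as lineage-negative, c-Kit-positive and Sca-1-negative, the phenotype of myeloerythroid progenitors, and split by green fluorescence from a Hes1 reporter. The GFP-positive group and the GFP-negative group had 3 Affymetrix arrays each, and both groups came from 6-week-old male mice of the genotype Hes1 GFP/WT, that is with 1 reporter allele and 1 wild-type allele of Hes1. No group without the reporter allele was used. The labels do not say whether arrays came from separate animals or pools, so the p-values cover the spread from array to array, which may be technical.

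Notch receptors are single-pass membrane proteins that are cleaved after binding a Delta-like or Jagged ligand on a neighbouring cell. The freed intracellular part enters the nucleus, binds the DNA-binding protein RBPJ and raises transcription of targets such as Hes1. Fringe enzymes add N-acetylglucosamine to O-fucose on the receptors' epidermal growth factor repeats and so change which ligands a receptor responds to. In mouse blood cell development, Notch1 is best known for starting the T cell lineage and Notch2 for marginal zone B cells.

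Values are probe set intensities made by the authors with RMA, on the log2 scale, and a change is GFP-positive minus GFP-negative with a 95% confidence interval from limma. A probe set is called where its Benjamini-Hochberg adjusted p over all 45037 probe sets is under 0.05. Each probe set has its own brightness, so levels are compared between arrays and not between probe sets. The file holds no detection calls, and a probe set is termed dim where its mean was at or below 4.71, the 95th percentile of 44 olfactory receptor probe sets. By that measure 5 of the 20 member probe sets were dim.

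Array medians lay between 59.9 and 64.8 on the linear scale. Arrays of 1 group correlated across probe sets at r = 0.989 to 0.993 and arrays of different groups at 0.973 to 0.979, values given as a description. Hes1, whose reporter was sorted on, lay at 7.20, 7.12 and 7.13 in GFP-positive arrays, against 5.74, 6.01 and 5.90 in GFP-negative arrays. Kit, the surface receptor used in the sort, lay at 11.17 ± 0.06 in GFP-positive and 11.42 ± 0.11 in GFP-negative arrays (SD, n = 3 each). Ly6a, which encodes Sca-1, was not analysed here. GFP-positive array 1 and GFP-negative array 3 stood apart by the immunoglobulin joining chain Jchain, at 8.65 and 8.85 there, against 3.64 to 4.08 on the other 4 arrays. The brightest listed probe set of the light chain Igk was highest there too, at 11.14 and 9.99, against 5.07 to 7.61. An Ighm probe set was high on GFP-negative array 3 alone, at 11.15, against 4.47 to 5.26. The cell type behind the signal of GFP-positive array 1 and GFP-negative array 3, termed immunoglobulin-bearing below, was not tested. Counts with both of these arrays left out are given beside the results they change. In bulk RNA, fewer cells of a type and less RNA per cell cannot be told apart.

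Promoters are shown for the receptor that was lower in GFP-positive cells and the ligand that was lower by 1 of its 2 probe sets. The third is that of Lfng, the 1 member whose promoter held the RBPJ motif. Each runs 5′ to 3′ over the 250 bases before the transcription start, from RefSeq on build GRCm38.p6. Notch1 is taken from chr2:26503823-26504072 on the minus strand, Jag2 from chr12:112929496-112929745 on the minus strand, and Lfng from chr5:140607091-140607340 on the plus strand. Capitals mark the motif TGGGAA or its reverse complement TTCCCA.
Notch1: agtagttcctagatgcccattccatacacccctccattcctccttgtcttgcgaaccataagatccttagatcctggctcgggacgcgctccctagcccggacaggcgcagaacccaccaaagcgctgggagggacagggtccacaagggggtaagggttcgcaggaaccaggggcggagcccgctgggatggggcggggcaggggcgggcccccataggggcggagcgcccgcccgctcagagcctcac
Jag2: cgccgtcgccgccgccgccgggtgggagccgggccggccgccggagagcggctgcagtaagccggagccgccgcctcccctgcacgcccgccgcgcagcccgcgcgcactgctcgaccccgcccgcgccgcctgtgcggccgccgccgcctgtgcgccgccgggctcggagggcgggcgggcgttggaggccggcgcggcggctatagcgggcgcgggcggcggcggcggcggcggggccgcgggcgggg
Lfng: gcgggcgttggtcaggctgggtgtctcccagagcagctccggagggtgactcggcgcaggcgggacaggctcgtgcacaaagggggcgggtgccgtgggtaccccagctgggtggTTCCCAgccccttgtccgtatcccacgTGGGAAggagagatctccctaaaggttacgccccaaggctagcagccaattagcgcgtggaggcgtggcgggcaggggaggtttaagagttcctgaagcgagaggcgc
The table held 10 promoters for 9 of the 10 genes, Mfng being the gene not matched. Of these, 1 promoter, that of Lfng, held TGGGAA on either strand, against 21.6% of all 32851 promoters of this length. It held the motif once on each strand, with the first base of TGGGAA 108 bases before the start and that of TTCCCA 135 bases before it. The first match lies within CGTGGGAA, a longer form looked for after the sequence had been seen, which 0.636% of all promoters held on either strand. A match describes these letters only. The Jag2 window was 87.2% G and C with 54 CpG dinucleotides, against medians of 52.4% and 6 over all promoters, and the Notch1 window was 66% G and C with 16.

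GFP-positive progenitors had less signal for the receptor Notch1, the Fringe enzyme Mfng and, by 1 of its 2 probe sets, the ligand Jag2. No member was called higher. Of the 20 member probe sets, 4 were called lower, a share of 20%, where 14.0% of all probe sets were called, 7.66% lower and 6.35% higher. All 4 were among the 15 member probe sets above the dim level, at which 11.0% of probe sets were lower and 8.81% higher. By the brightest probe set of each gene, 3 of the 10 genes were lower, and 0 higher, against 9.92% and 8.15% of all 18193 genes. None of the 20 was called higher by limma. At an unadjusted p under 0.05, 3 were higher and 4 lower. The share of all probe sets or genes at that threshold was not taken, here or for the lists below. Unadjusted counts therefore have no background to be read against. The median change was -0.03 over the member probe sets and 0.09 over all probe sets. Groups did not overlap for 9 member probe sets, a share of 45% against 38.5% of all probe sets, and 4 of the 9 were higher in GFP-positive arrays. With GFP-positive array 1 and GFP-negative array 3 left out together, 3 member probe sets, of 2 genes, were called lower and 0 higher. With GFP-positive array 1 alone left out, 4 were lower and 2 higher, both of them probe sets of Lfng.

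**Figure D1:**
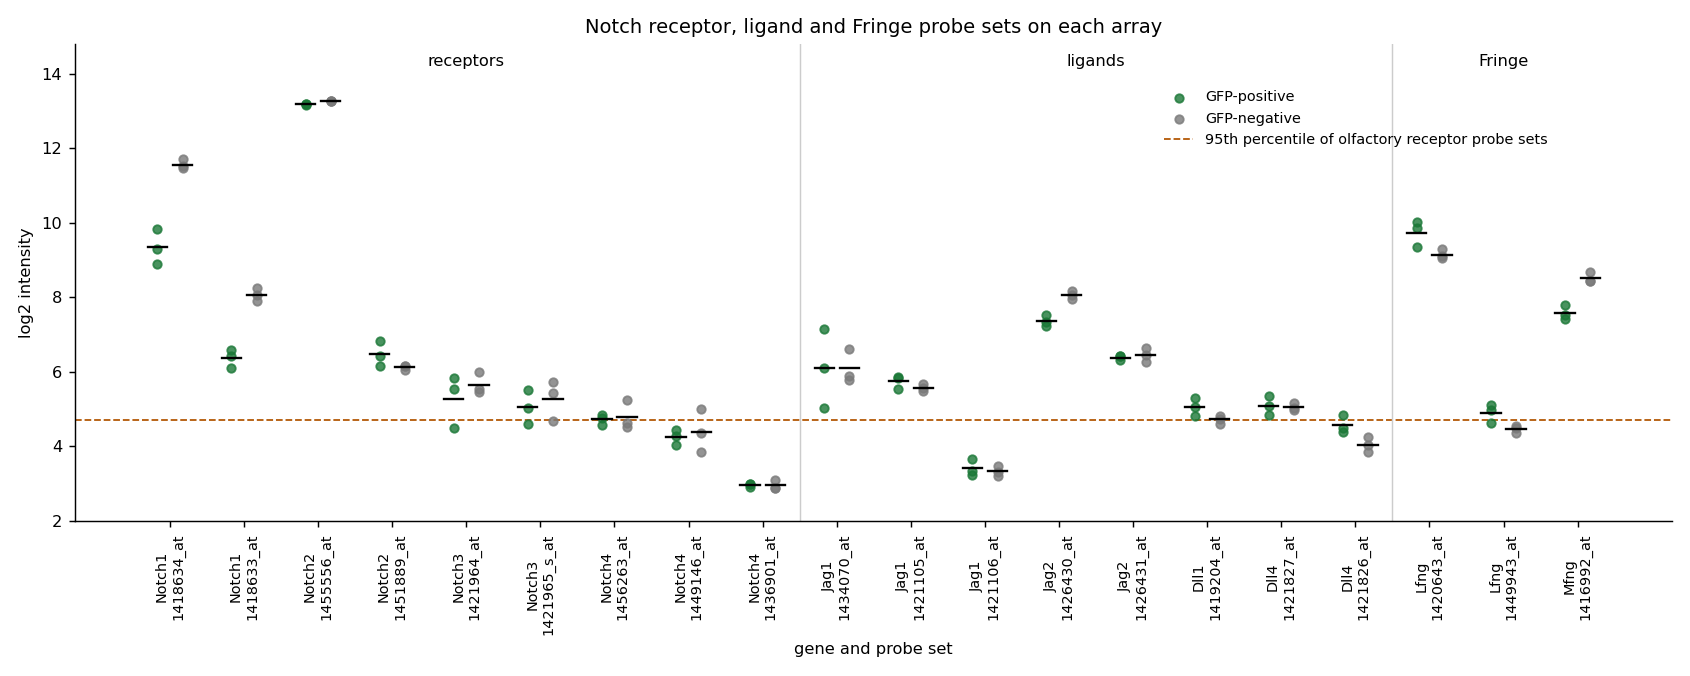
Log2 intensity (y axis) of the 20 member probe sets (x axis, by gene and probe set) on 3 GFP-positive arrays (green, left of each pair) and 3 GFP-negative arrays (grey, right), with group means as bars and the dim level of 4.71 as a dashed line. Both Notch1 probe sets, Jag2 1426430_at and Mfng 1416992_at lay lower on every GFP-positive array than on any GFP-negative array, while Notch2 1455556_at lay above 13 on all 6.

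Notch1 showed the widest difference among the members. Its brighter probe set, 1418634_at, lay at 9.84, 8.90 and 9.30 in GFP-positive arrays, against 11.46, 11.53 and 11.70 in GFP-negative arrays. No GFP-positive array reached any GFP-negative array, and array 2 was the lowest of the GFP-positive arrays. The change was -2.22 (95% interval -2.79 to -1.65), so that signal was 4.65-fold lower in GFP-positive cells (limma adjusted p = 0.00280). The second probe set, 1418633_at, lay at 6.42, 6.10 and 6.58 in GFP-positive arrays, against 8.07, 8.24 and 7.89 in GFP-negative arrays. It changed by -1.70 (-2.09 to -1.31; adjusted p = 0.00193), a 3.25-fold lower signal, and its interval overlaps that of the first. Both probe sets kept their call under every alternative run that held them, with adjusted p up to 0.0233 for 1418634_at and 0.0296 for 1418633_at, both reached with the 2 immunoglobulin-bearing arrays left out.

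Notch2 was among the brightest probe sets on the arrays and hardly differed between groups. Probe set 1455556_at lay at 13.18, 13.17 and 13.18 in GFP-positive arrays, against 13.28, 13.27 and 13.28 in GFP-negative arrays. Its mean stood at percentile 99.1 of all probe sets. The spread within groups was 0.01 (SD, n = 3 each), and 0.0222% of all probe sets had a within-group spread as small or smaller. The groups did not overlap, but the change was -0.10 (-0.29 to 0.10) and was not called (adjusted p = 0.441). The interval runs from 1.22-fold lower to 1.07-fold higher signal of this probe set in GFP-positive arrays. Its width and the adjusted p come mostly from the spread that limma borrows from all probe sets (standard error 0.08). The small spread of this probe set itself contributes little to them. Whether so bright a probe set still follows the amount of RNA was not tested. The second Notch2 probe set, 1451889_at, lay at 6.82, 6.43 and 6.15 in GFP-positive arrays, against 6.16, 6.05 and 6.16 in GFP-negative arrays, and the groups overlapped (change 0.34, interval -0.08 to 0.77; adjusted p = 0.235).

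The changes of both receptors were compared within each array. The log2 intensity of Notch1 minus that of Notch2 was -3.35, -4.27 and -3.88 in GFP-positive arrays, against -1.82, -1.74 and -1.58 in GFP-negative arrays. The groups did not overlap, and the change of Notch1 exceeded that of Notch2 by 2.12 downwards, a difference of -2.12 between the log2 changes. Notch2 1455556_at varied by 0.01 within groups and changed by -0.10, so this difference mostly restates the Notch1 change of -2.22. An exact 2-sided permutation test gave p = 0.10, the smallest that 3 arrays against 3 allow, so this design cannot pass 0.05 by that test.

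Notch3 and Notch4, receptors known mainly from vascular cells, lay in the lower part of the intensity range and were not called. Notch3 1421964_at lay at 5.82, 4.48 and 5.54 in GFP-positive arrays, against 5.98, 5.44 and 5.52 in GFP-negative arrays, with overlapping groups (change -0.37, interval -1.24 to 0.49). Its second probe set, 1421965_s_at, had a log2 difference of -0.23 (-1.03 to 0.57). Their spread within groups was as large as or larger than that of 94.3% and 92.7% of all probe sets, and the first interval reaches a 2.36-fold lower signal. Of the 3 Notch4 probe sets, 2 were dim and the third, 1456263_at, had a mean of 4.76, just above the dim level. Their changes ran from -0.15 to 0.01, all with overlapping groups.

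**Figure D2:**
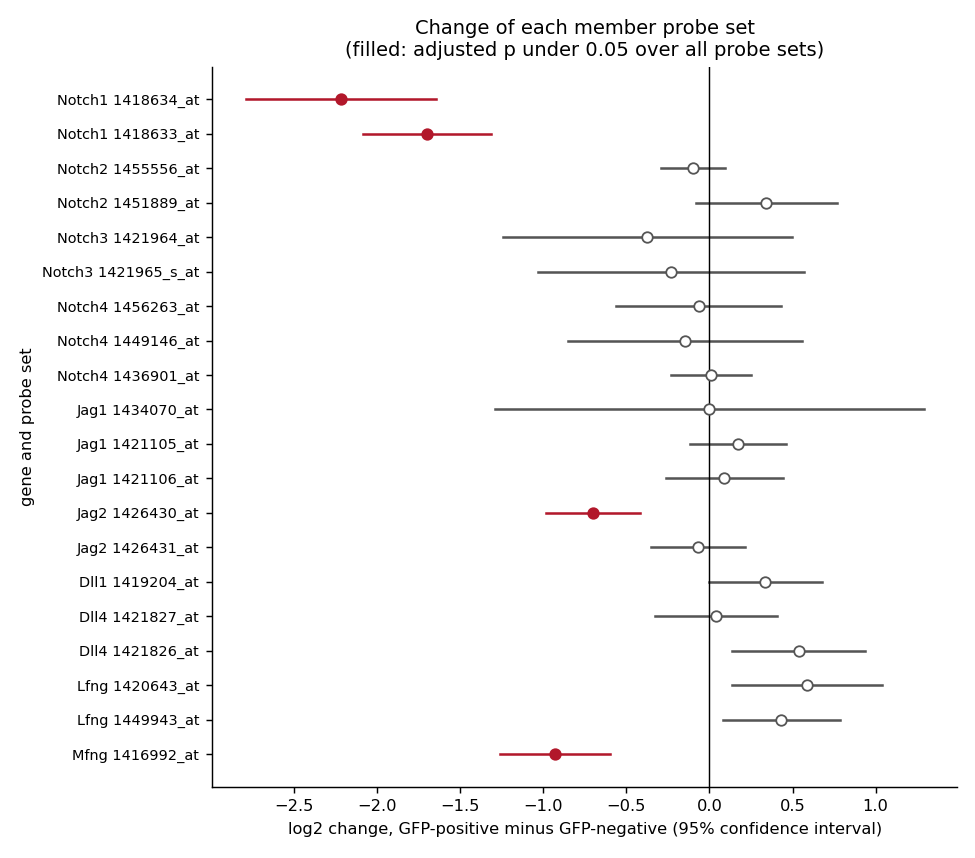
Log2 change, GFP-positive minus GFP-negative, of each member probe set (rows, by gene) with its 95% confidence interval from limma; filled points have an adjusted p under 0.05. The 4 filled points, those of Notch1 (2), Jag2 and Mfng, lie between -2.22 and -0.70, and the largest open changes on the positive side are those of Lfng at 0.59 and Dll4 at 0.54.

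Jag2, a Jagged-type ligand, was lower in GFP-positive cells by 1 of its 2 probe sets. Probe set 1426430_at lay at 7.53, 7.32 and 7.21 in GFP-positive arrays, against 8.16, 7.95 and 8.06 in GFP-negative arrays. All GFP-positive arrays lay below all GFP-negative arrays, and the change was -0.70 (-0.99 to -0.41), or 1.62-fold lower (adjusted p = 0.0131). Probe set 1426431_at lay at 6.41, 6.31 and 6.41 in GFP-positive arrays, against 6.45, 6.62 and 6.27 in GFP-negative arrays. Here the groups overlapped and the change was -0.07 (-0.35 to 0.22; adjusted p = 0.727), positive with array medians subtracted or quantile normalization repeated. Within arrays, the brighter minus the dimmer probe set was 1.12, 1.01 and 0.80 in GFP-positive arrays, against 1.71, 1.33 and 1.79 in GFP-negative arrays, a comparison chosen after the values had been seen and given as a description. The groups did not overlap, and the difference between the log2 changes was -0.63. The adjusted p of Jag2 1426430_at was 0.0516 when GFP-negative array 3 was left out and 0.0583 when GFP-positive array 1 was left out too.

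None of the other ligands was called. Jag1, the Jagged ligand of stromal and endothelial cells, had its brightest probe set, 1434070_at, at 7.14, 5.02 and 6.10 in GFP-positive arrays, against 5.88, 6.62 and 5.77 in GFP-negative arrays. Array 1 and array 2 of the GFP-positive group were the highest and the lowest of all 6, and 98.8% of probe sets varied less or as much within groups. The interval of its change, -1.29 to 1.29, covers a fold of 2.44 in either direction, and the other Jag1 probe sets had log2 differences of 0.17 (-0.12 to 0.46) and 0.09 (-0.26 to 0.44). Dll1, a Delta-like ligand, lay at 4.82, 5.28 and 5.06 in GFP-positive arrays, against 4.81, 4.60 and 4.74 in GFP-negative arrays. The groups did not overlap but nearly met, at array 1 of each (change 0.34, -0.00 to 0.68; adjusted p = 0.163). Dll4, the ligand that acts on Notch1 in the mouse thymus, had a dim probe set, Dll4 1421826_at, at 4.85, 4.38 and 4.48 in GFP-positive arrays, against 4.24, 3.83 and 4.02 in GFP-negative arrays. Its log2 difference was 0.54 (0.13 to 0.94; adjusted p = 0.0833), and its adjusted p was 0.0421 with array medians subtracted and 0.0403 with the replicate number as a block. The brighter Dll4 probe set, 1421827_at, had a log2 difference of 0.04 (-0.33 to 0.40).

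Cells outside the progenitor gate can carry Notch ligands, so markers of endothelium and stroma were read beside them. Of 12 such genes, 2 were called higher and 4 lower, together 50% against 18.1% of all genes, with 2 dim. At an unadjusted limma p under 0.05, 4 were higher and 4 lower. The summed linear intensity of the 12 was 1116 to 1313 in GFP-positive arrays, against 1843 to 2080 in GFP-negative arrays. A sum follows its brightest genes, which in GFP-negative arrays were Pdgfrb (mean log2 intensity 9.31), Tek (8.85) and Pecam1 (8.39). The median change of the 12 was 0.07, against 0.11 over all genes. The endothelial cadherin Cdh5, named after its values were seen, was dim, at 3.65, 4.13 and 4.22 in GFP-positive arrays, against 3.76, 3.86 and 3.71 in GFP-negative arrays. Emcn, an endothelial sialomucin also present on stem cells, lay between 3.94 and 4.19 in GFP-positive arrays, against 6.52 to 6.61 in GFP-negative arrays (adjusted p = 0.000936). Its GFP-positive values were all below the dim level, so no fold is given. The receptors Tek and Pdgfrb and the adhesion molecule Pecam1 were lower too. Col1a1 and Cxcl12, named after their values were seen, were higher in GFP-positive arrays without overlap but not called. Col1a1 lay at 6.14, 8.27 and 6.04 in GFP-positive arrays, against 4.87, 4.78 and 5.10 in GFP-negative arrays (adjusted p = 0.0823). For Cxcl12 the values were 6.83, 4.67 and 5.85, against 4.31, 4.26 and 4.55 (adjusted p = 0.117). Vwf and Cldn5, the second with an adjusted p of 0.0491 and named after its values were seen, were the 2 called higher. That count was 3 with GFP-positive array 2 left out, 1 with any other array left out and 0 with the immunoglobulin-bearing arrays left out, while the count called lower was 4 in all of these repeats. The part of such cells in the ligand values was not tested.

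The Fringe enzymes Mfng and Lfng differed in opposite directions, Mfng past the threshold and Lfng not. Mfng 1416992_at lay at 7.80, 7.43 and 7.53 in GFP-positive arrays, against 8.68, 8.43 and 8.43 in GFP-negative arrays. Every GFP-positive array was lower than every GFP-negative array, and the change was -0.93 (-1.26 to -0.60), or 1.90-fold lower (adjusted p = 0.00810, and 0.0363 with the immunoglobulin-bearing arrays left out). Lfng 1420643_at lay at 9.34, 10.01 and 9.85 in GFP-positive arrays, against 9.29, 9.10 and 9.04 in GFP-negative arrays. The groups did not overlap, though GFP-positive array 1 was close to GFP-negative array 1. The change was 0.59 (0.14 to 1.04), with an adjusted p of 0.0884. The dim second probe set, 1449943_at, lay at 4.61, 5.10 and 4.96 in GFP-positive arrays, against 4.35, 4.50 and 4.53 in GFP-negative arrays (change 0.43, 0.08 to 0.79; adjusted p = 0.102). Without GFP-positive array 1 the adjusted p was 0.0205 for Lfng 1420643_at and 0.0348 for Lfng 1449943_at, with changes of 0.78 and 0.57.

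Within arrays, the log2 intensity of Mfng minus that of Lfng was -1.54, -2.58 and -2.32 in GFP-positive arrays, against -0.61, -0.67 and -0.61 in GFP-negative arrays. The GFP-positive arrays spread more (SD 0.54) than the GFP-negative arrays (SD 0.03). The difference between the changes was -1.52 with no overlap, a comparison chosen after the values had been seen and given as a description. Rfng, the third Fringe gene and not a member, lay at 10.58, 11.03 and 10.78 in GFP-positive arrays, against 10.39, 10.22 and 10.32 in GFP-negative arrays. It was not called (change 0.49, 0.16 to 0.82; adjusted p = 0.0646) and is named after its values were seen.

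**Figure D3:**
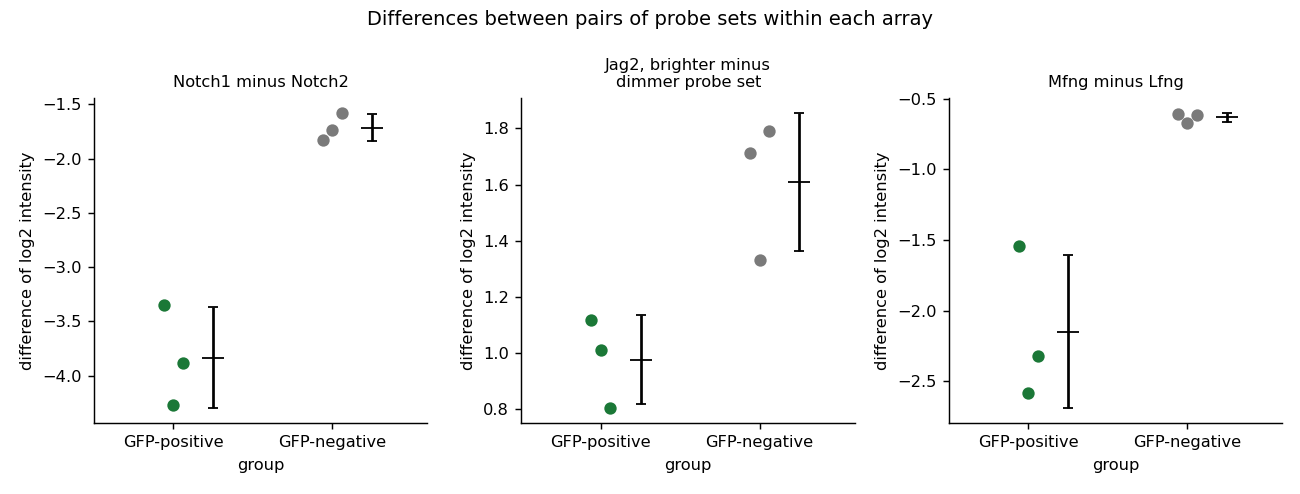
Difference in log2 intensity between 2 probe sets on the same array (y axes), for Notch1 minus Notch2, the brighter minus the dimmer Jag2 probe set, and Mfng minus Lfng, with single arrays as points and mean ± SD beside them (n = 3). In each panel all 3 GFP-positive arrays (left) lie below all 3 GFP-negative arrays (right), and the y axes do not start at 0.

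Among GFP-positive arrays, array 1 had the highest Notch1 by its brighter probe set, the highest Mfng and the lowest Lfng, and array 2 the lowest Notch1, the lowest Mfng and the highest Lfng. This is a description of 3 arrays without a test. Array 2 also had the lowest summed intensity of the 10 granulocyte and monocyte markers, 32493 on the linear scale, against 40855 in array 1 and 39064 in array 3. It had the lowest sum of the 8 multipotent progenitor markers as well, 6283 against 6969 in array 1 and 8006 in array 3.

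Markers of blood lineages moved with the groups. All 8 multipotent progenitor markers were lower in GFP-positive arrays, with sums of 6283 to 8006 against 20998 to 22937 in GFP-negative arrays. The cytokine receptor Flt3 changed most among them, by -3.13 (limma adjusted p = 0.00154). All 10 granulocyte and monocyte markers were lower, with sums of 32493 to 40855 against 72956 to 78496, and the receptor Csf1r changed by -2.74 (adjusted p = 0.00530). Of 10 erythroid markers, 8 were higher and 0 lower (9 and 0 at an unadjusted p under 0.05), with sums of 57569 to 62297 against 36623 to 37862, and the erythropoietin receptor Epor changed by 1.70 (adjusted p = 0.00118). Of 11 B cell markers 0 were higher and 2, Ighm and Cd79b, lower (3 and 2 unadjusted), together 18.2% against 18.1% of all genes. The sums of the 11 were 1126 to 1815 against 2836 to 3821, and their median change was 0.10 against 0.11 over all genes. Cd79a, Igll1 and Ms4a1, named after their values were seen, were higher without overlap, by 0.55, 0.49 and 0.34, but not called. The B cell surface genes Ms4a1 and Cd22, named after their values were seen, were dim, and 1 B cell marker was called higher with GFP-positive array 1 or GFP-negative array 3 left out. With each gene represented by its probe set of highest variance, 0 B cell markers were called higher and 1 lower. Of 6 megakaryocyte markers 1, Vwf, was higher and 0 lower (3 and 0 unadjusted), together 16.7% against 18.1% of all genes. Their sums were 5572 to 6560 against 3933 to 4983, and their median change was 0.57. Pf4 and Gp9, the 2 of highest mean, changed by 0.51 (limma adjusted p = 0.0586) and -0.03. The count of megakaryocyte markers called higher was 3 with GFP-negative array 2 left out. With GFP-positive array 1 left out, 1 of them was lower as well. With the immunoglobulin-bearing arrays left out, 6 multipotent and 8 granulocyte and monocyte markers were lower, 7 erythroid markers were higher and 0 megakaryocyte markers were.

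Of 10 T and natural killer cell markers limma called none (3 higher and 2 lower unadjusted), with sums of 954 to 1145 in GFP-positive arrays, against 602 to 835 in GFP-negative arrays. The transcription factor Bcl11b lay at 9.27, 8.65 and 9.24 in GFP-positive arrays, against 5.82, 5.04 and 8.05 in GFP-negative arrays. The groups of Bcl11b did not overlap, and GFP-negative array 3 was nearest to the GFP-positive arrays. Its change was 2.75 (0.97 to 4.52; adjusted p = 0.0566), and the adjusted p of Bcl11b 1435227_at was 0.00786 with GFP-negative array 3 left out. Cd247, a T cell receptor signalling chain, had a log2 difference of -0.54 (-1.28 to 0.20; adjusted p = 0.277). Cd3d and Cd2, named after their values were seen, had log2 differences of 0.64 (adjusted p = 0.0513) and 0.77 (adjusted p = 0.0583), both without overlap. In the other direction Cd28 and Cd5, likewise named afterwards, had log2 differences of -1.29 (adjusted p = 0.133) and -0.38 (adjusted p = 0.0608). The groups overlapped for Cd28 and did not for Cd5. Cd5 was dim, as were Cd3g and Ncr1, also named afterwards. The count called higher was 3 with an intensity trend or array medians subtracted, 2 with array weights or with the immunoglobulin-bearing arrays left out, and 0 or 1 with a single array left out. Leaving out GFP-positive array 1 or 2, or GFP-negative array 3, gave the count of 1, and leaving out GFP-positive array 3 gave 1 lower. The part of all these cells in the lower signal of Notch1, Jag2 and Mfng was not tested.

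Genes that glycosylate the receptors, carry the ligands into the cell or turn over the receptor changed in both directions. Of 28 such genes and other ligands, 3 were higher and 2 lower, together 17.9% against 18.1% of all genes called, and the median change was -0.01, against 0.11 over all genes. Dtx4, a Deltex-type ubiquitin ligase, lay at 8.37, 7.41 and 7.94 in GFP-positive arrays, against 9.77, 9.83 and 9.68 in GFP-negative arrays. It was 3.61-fold lower (change -1.85, -2.42 to -1.28; adjusted p = 0.00500), with array 2 again the lowest of the GFP-positive arrays, and kept its call without any 1 array. The other gene called lower, named after its values were seen, was Dtx3l, at -0.35.

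The 3 genes that were higher were Eogt, which adds N-acetylglucosamine to epidermal growth factor repeats, by 0.75, and the endocytic epsins Epn1 by 0.62 and Epn2 by 0.51 on the log2 scale. Their adjusted p-values from limma were 0.0236, 0.0129 and 0.0284, and none kept its call in every repeat with 1 array left out. Eogt 1433671_at had adjusted p-values of 0.0643 and 0.0727 when GFP-positive arrays 1 and 3 were left out in turn, and of 0.0829 and 0.0810 when GFP-negative arrays 2 and 3 were. Epn1 1427039_at had 0.0501 with GFP-positive array 2 left out and 0.0542 with GFP-negative array 2 left out. Epn2 1433915_s_at was called in 1 of these repeats, that leaving out GFP-positive array 1, and had adjusted p-values up to 0.0977 in the others. With the immunoglobulin-bearing arrays left out, 0 of the 28 were higher and 2 lower. Epsins take part in the endocytosis by which a ligand-bearing cell pulls on the receptor. None of the 5 other ligands on the list (Dll3, Dlk1, Dlk2, Dner and Cntn1) was called, 0 of them passed at an unadjusted p under 0.05, and 3 were dim.

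Of 25 measured genes of receptor cleavage and of the nuclear complex, 1 was higher and 2 lower, together 12% against 18.1% of all genes, with a median change of -0.04. The gene that was higher, Psen2, a catalytic subunit of gamma-secretase, changed by 0.80 (adjusted p = 0.00918). Ctbp2, a corepressor, changed by -0.72 (adjusted p = 0.0112), and Aph1b, another gamma-secretase subunit, by -0.82 (adjusted p = 0.0409). With 1 array left out, Aph1b 1435793_at was called in 1 repeat, that leaving out GFP-negative array 3, with adjusted p-values up to 0.116 in the others. With the immunoglobulin-bearing arrays left out, 0 of the 25 were called in either direction. Rbpj itself, named after its values were seen, lay at 11.23, 10.91 and 10.97 in GFP-positive arrays, against 11.33, 11.29 and 11.34 in GFP-negative arrays, and was not called (adjusted p = 0.144). None of the 9 nuclear activators was called, and 1 was lower at an unadjusted p under 0.05.

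Of 17 measured Notch target genes, 4 were higher and 4 lower, together 47.1% against 18.1% of all genes called. Their median change was 0.12, against 0.11 over all genes. Hes1 is among the higher genes, and its reporter defined the groups. The others that were higher were Gzmb, a cytotoxic protease, at 15.9-fold, the transcription factor Gata3, by 1.46 on the log2 scale, and, named after its values were seen, the feedback inhibitor Nrarp by 0.96. Bcl2 changed by -1.82 and Cdkn1a by -1.68, and with them Ccnd1 and Runx1, also named after their values were seen, were lower. Without GFP-negative array 2, and likewise without GFP-negative array 3, 1 target gene was called lower, and with the immunoglobulin-bearing arrays left out 2 were. The count was also 2 when GFP-positive array 2 or 3, or GFP-negative array 1, was left out.

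**Figure D4:**
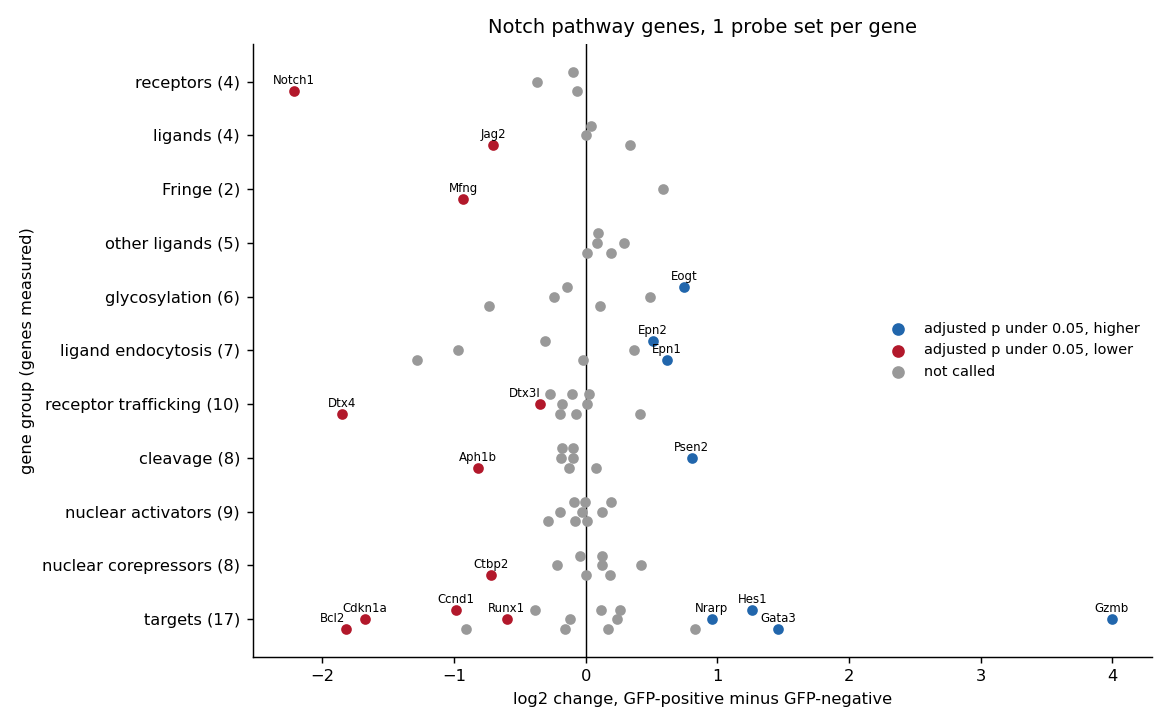
Log2 change, GFP-positive minus GFP-negative (x axis), of the members and of the other Notch pathway genes by role (rows, with the number of genes measured), 1 probe set per gene; blue and red points have a limma adjusted p under 0.05. Notch1 at -2.22 and Dtx4 at -1.85 lie farthest to the left and Gzmb farthest to the right.

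**Figure D5:**
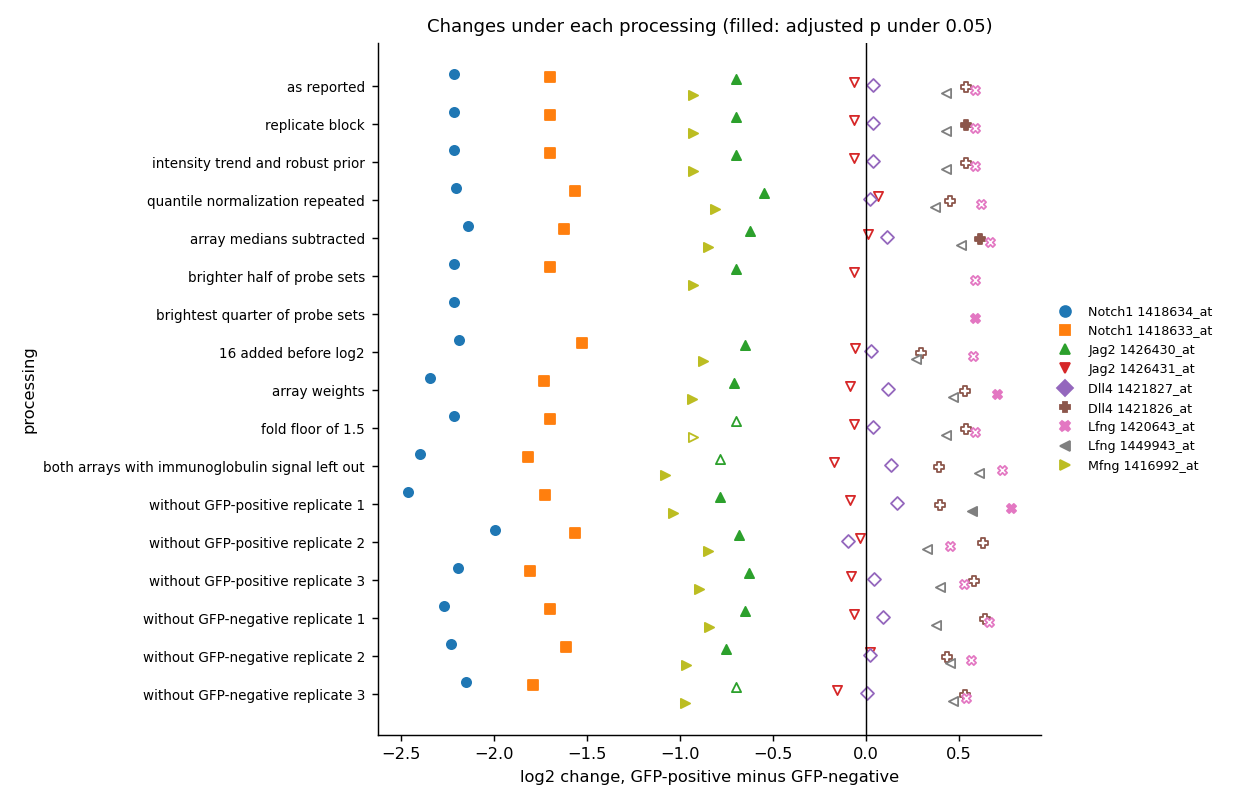
Log2 change (x axis) of the Notch1, Jag2, Dll4, Lfng and Mfng probe sets under each processing run (rows); filled symbols have an adjusted p under 0.05. Both Notch1 probe sets stay filled in every row that holds them, Jag2 1426430_at opens in 3 rows and Mfng in 1, and Lfng 1420643_at fills in 3.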

How the data were processed

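Biotin-labelled cDNA was made from 5 ng of total RNA per sample with NuGEN Ovation kits, per the labels' protocols, and read on 6 Affymetrix arrays. The authors deposited 1 linear intensity per probe set and array, and RMA is the tool that the submitters' processing notes name. The sources used here give neither its version and settings nor the step that made the values linear. Intensities ran from 4.27 to 24551, with 0 missing.

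Log2 of these intensities was used with no added normalization, and 64 control probe sets of 45101 were dropped. GEO's platform annotation gave 1 gene symbol for 34945 probe sets, several for 932 and none for 9160, and each gene was represented by its brightest probe set on average. Of those with 1 symbol, 34741 matched RefSeq's GRCm38.p6 gene table by gene ID with the same symbol.

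The comparison used lmFit and eBayes of limma 3.58.1 (R 4.3.3) with no covariate and 6.38 total degrees of freedom. Exact permutation tests used scipy 1.17.1. The number of arrays limits the precision. Replicate numbers were not taken as pairs. Named genes were all members, Hes1, Kit and, of each other list, up to 4 called genes of largest change, or the 2 of highest mean where fewer than 2 were called. Marker lists are given mainly as counts. The members, lists and alternatives were chosen with earlier results of these data known. Alternatives were a replicate block, other priors, scalings, filters, weights and a fold floor of 1.5, another probe set per gene, and arrays left out.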

Additional observations from a re-analysis of the deposited data

How the results depend on the processing

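Notch1 kept its call by both probe sets under all alternatives that held them, and Mfng lost it only with a fold floor of 1.5 (adjusted p = 0.365). The other changes below come from fewer samples, fewer probe sets or the threshold itself, or their cause was not tested. Over all probe sets, leaving out 1 array gave 1212 to 2243 higher and 2192 to 3098 lower, and leaving out both arrays with immunoglobulin signal 681 and 1652. With array medians subtracted 5218 were higher and 3267 lower, so that 61.5% of calls were higher, against 45.3% as reported. Among the 11260 brightest probe sets 2396 were higher and 1893 lower, a share of 55.9%, and with the fold floor 348 and 954, a share of 26.7%. Quantile normalization gave 51.3% and both arrays left out 29.2%.

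Member probe sets called higher were 1 with the replicate block or array medians subtracted (Dll4), 1 with array weights or among the 11260 brightest probe sets (Lfng), and 0 to 2 with 1 array left out. Those called lower were 3 to 4 with 1 array left out, 2 with the fold floor and 1 among the brightest, which hold 3 of the 20. By gene, 1 was higher with array weights and among the brightest and 0 to 1 with 1 array left out, and 2 to 3 were lower with 1 array left out and 1 with the fold floor or among the brightest.

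For glycosylation, endocytosis and other ligands, 0 to 4 were higher and 1 to 2 lower with 1 array left out, 0 higher with the fold floor or both arrays left out, 4 lower with an intensity trend or among the 22519 brighter, and 1 lower with medians subtracted, the fold floor or the probe set of highest variance. For cleavage and the nuclear complex, 1 to 2 were higher and 1 to 2 lower with 1 array left out, 2 higher with array weights or among the brightest, 1 lower among the 22519 brighter or 11260 brightest, and 0 in either direction with the fold floor or both arrays left out. For targets, 4 to 5 were higher and 1 to 4 lower with 1 array left out, 1 higher among the brightest, 1 lower with the fold floor and 2 lower with both arrays left out.

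The Notch1 change minus Notch2 change ran from -2.36 to -1.90 with 1 array left out. Signs turned only for changes that were not called. Notch4 1456263_at differed by 0.014 with medians subtracted, 0.019 with array weights and -0.20 to 0.16 with 1 array left out, and Notch4 1436901_at by -0.055 with quantile normalization, -0.045 with both arrays left out and -0.028 to 0.079 with 1 array left out. Notch4 1449146_at ran from -0.43 to 0.16, Notch3 1421964_at from -0.64 to 0.029 and Dll4 1421827_at from -0.097 to 0.17 with 1 array left out. Jag1 1434070_at differed by 0.077 with quantile normalization or medians subtracted, 0.033 with 16 added before log2 and -0.53 to 0.53 with 1 array left out. Jag1 1421106_at differed by -0.0043 with quantile normalization and -0.039 to 0.18 with 1 array left out. Jag2 1426431_at differed by 0.065 with quantile normalization, 0.010 with medians subtracted and -0.16 to 0.022 with 1 array left out. Gp9 1419720_at of the megakaryocyte list differed by 0.040 with quantile normalization, 0.049 with medians subtracted and -0.12 to 0.057 with 1 array left out.

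Same-numbered arrays deviated together at r = 0.02, 0.05 and 0.02 across probe sets, and the other pairs at -0.04 to 0.02. Each array correlated best with its own number. The labels do not say whether the replicate numbers pair arrays, and such small values cannot decide it. With the replicate number as a block 1969 probe sets were higher and 2872 lower. Of the member probe sets 5 were dim, 2 of Notch4 and 1 each of Jag1, Dll4 and Lfng.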
